A study of Mus with 9 samples.

Results

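Infarction was compared with sham surgery in mice that received vehicle and no drug. The libraries were those labelled MI + Vehicle (MI 2, MI 3 and MI 4) and Sham + Vehicle (Sham 1, Sham 2 and Sham 3), which are 6 of the 9 libraries of the series. Genes were not selected by their values beyond a filter on low counts, which left 19326 of 55421 genes. The other 3 libraries (MI_ART 1 to 3) come from infarcted mice given artesunate. They entered the filter, the scaling and the fit's estimate of the spread, and are not described. Some tested genes therefore had no count in the 6 libraries compared. All groups were labelled male wild-type C57BL/6J mice, 8 to 10 weeks old and 20 to 23 g in weight. Infarcted mice had the left anterior descending coronary artery tied off permanently, and sham-operated mice had the operation without the tie. The vehicle is not named in the labels, although the drug of the third group was dissolved in DMSO. The labels give no day of harvest, call the animals rats in places, and speak of 4 groups while naming 3. Titles of the Sham libraries end in AF, and those of the MI and MI_ART libraries do not. The tissue is given as atria in the sample labels and as left atrium in the series text. Nothing says that each library came from its own animal, so a p-value here measures no more than the spread of these libraries, which may be technical.

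A tied coronary artery kills the ventricular muscle it feeds, while the atria lie mostly outside that territory and meet the infarct through raised filling pressure, circulating signals and incoming leukocytes. Adult heart muscle burns fatty acids, lactate and pyruvate in densely packed mitochondria, uses heart or muscle forms of many enzymes for which other cells use a broadly expressed form, and hardly divides. In the days and weeks after an infarct, leukocytes clear debris, fibroblasts and endothelial cells multiply, and matrix is laid down.

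Levels are given as CPM, the counts relative to library size, which was scaled with TMM (trimmed mean of M values), a method that assumes most genes keep their level. Values are listed in the order Sham 1, 2, 3 and MI 2, 3, 4. A log2 fold change is MI over Sham, so 1 is a doubling, and SE is its standard error. A gene was called when edgeR's Benjamini-Hochberg adjusted p over all tested genes was under 0.05, and "rose", "fell", "higher" and "lower" are used of called genes. A bare number in parentheses after a gene is its log2 fold change. Of 378 genes named here, 135 overlap another annotated gene, and their counts are uncertain because the strand setting of the counting is not given in the sources used here. The 42 that overlap a protein-coding gene are Atp5a1, Bop1, Car9, Ccnd1, Cmss1, Cox6a2, Cox7a2, Ctsb, Dbp, Ddit3, Dmd, E2f1, Eno3, Fabp3, Fgf1, Fgf2, Fosl1, Gas6, Hk3, Hspa5, Ifit1, Igfbp7, Mb, Meg3, Mfn1, Myh6, Myl2, Myl4, Nr1d1, Nrg1, Pclaf, Pdha1, Per3, Pfkfb1, Pfkm, Pfkp, Psme4, Ptbp1, Rian, Slc16a3, Slc25a11 and Tbxas1.

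Transcripts of atrial and ventricular muscle were both present in these libraries. Myl2, the ventricular regulatory light chain, over Myl7, the atrial one, gave CPM ratios of 3.64, 17.7 and 6.57 in the Sham libraries and 1.87, 2.36 and 0.460 in the MI libraries. Myl7 was at 167.5 to 989 CPM in these 6 libraries but at 1.96 CPM in MI_ART 3, which thus held next to no transcript of this atrial marker. MI_ART 3 enters the filter, the scaling and the spread only. Whether the region of heart sampled differed between libraries was not tested, and a difference in region between the groups cannot be told apart from infarction. MI 4 was unlike MI 2 and MI 3. It had the lowest Ttn level, 178 CPM against 2358 and 1269 in MI 2 and MI 3, and the highest sums of adipocyte, red cell and B cell markers. Sham 1 alone held airway transcripts, with 6664 counts of Scgb1a1, a secretory protein of the airways, against 0 in the other 5 libraries. Total counts of the series ranged from 68046341 to 83685313, and none of the 9 pairs of libraries of the same group agreed within sampling noise. Fewer cells of a type and less RNA per cell cannot be told apart in such bulk libraries.

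The change between sham and infarct was broad. Of the tested genes, 33.1% were called, 18.8% higher (3631 genes) and 14.3% lower (2768 genes). The MI and Sham libraries did not overlap for 48.9% of tested genes. Rises reached further than falls. A rise over 4-fold was called for 1484 genes and over 16-fold for 513, against 414 and 41 falls of those sizes. For 195 called genes no read was counted in any Sham library, and for 16 none in any MI library, and the fitted folds of these, counted above, depend on the prior count. Among the 4832 genes with the highest mean level, those above 28.4 CPM, the balance turned, with 885 higher and 1317 lower. Protein-coding genes were called in 37.2% of cases and long noncoding RNA genes in 24.1%. For 1413 genes (7.31%) the 95% interval of the fold change lay within 1.5-fold in either direction. Without MI 4, 5746 of the 6399 calls (89.8%) were made again in the same direction. Without MI 4 and MI_ART 3, 3375 genes were higher and 2835 lower. With the 6 Sham and MI libraries alone, 18293 genes passed the filter and 5136 were called.

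**Figure D1:**
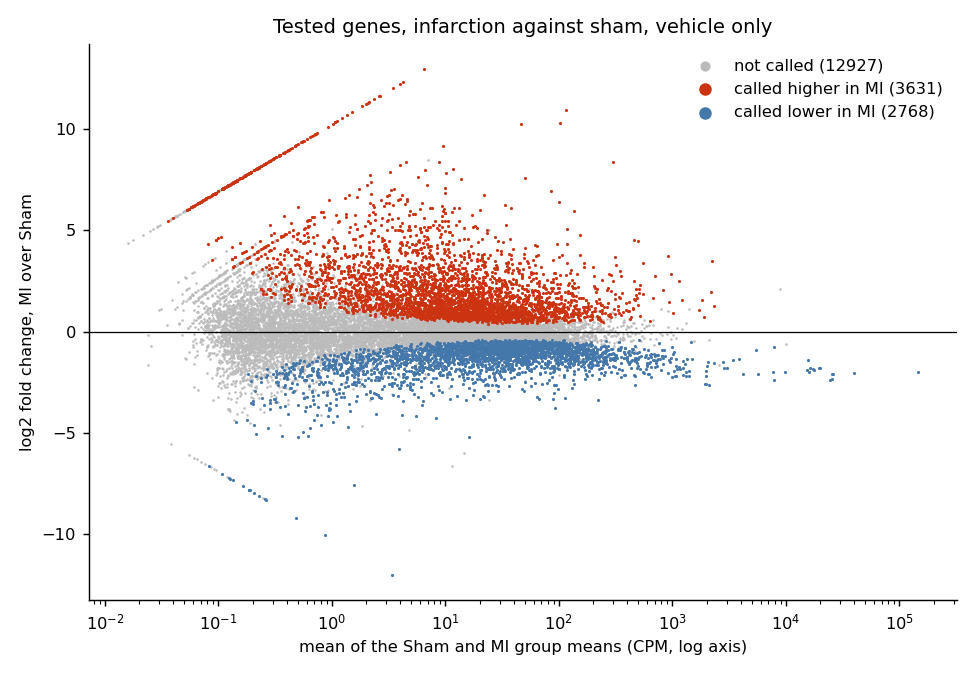
Mean level of each tested gene over the 6 libraries (CPM, log axis) against its log2 fold change, MI over Sham. Genes called higher (3631) and lower (2768) are coloured, all others are grey, and the rises extend further from 0 than the falls. Points on the straight diagonal lines are genes with no counts in 1 group, whose plotted fold change depends on the prior count and is no measured size.

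The split of calls depended on how libraries were scaled, and the groups differed in how much of each library a small set of transcripts filled. The 100 most abundant genes took 62.1%, 60.2% and 65.7% of all counts in the Sham libraries and 41.2%, 38.7% and 35.7% in the MI libraries. Transcripts encoded by the mitochondrial genome took 39.4%, 37.7% and 43.1% in the Sham libraries and 20.6%, 18.8% and 12.6% in the MI libraries. With scaling to total counts in place of TMM, 9527 genes were called higher and 644 lower. The median log2 fold change of all tested genes was 0.04 with TMM and 0.88 with total counts, and a gene's value moved by 0.85 in the median, so that log2 fold changes between about -0.85 and 0 turn their sign. Of the 378 named genes, 44 lost their call with total counts. With total counts 39 changed sign, of which 17 were called under at least 1 of the 2 scalings. Collagen genes took 0.119%, 0.112% and 0.0779% of counts in the Sham libraries and 1.05%, 1.36% and 1.49% in the MI libraries. Cytosolic ribosomal protein genes took 0.911%, 0.859% and 0.833% in the Sham libraries and 1.96%, 2.24% and 4.31% in the MI libraries. These shares did not overlap between the groups (exact permutation p = 0.1 each, the smallest that 3 against 3 allows). Sarcomere and Z-disc genes, by contrast, took 6.41%, 6.08% and 5.53% in the Sham libraries and 6.40%, 5.86% and 5.90% in the MI libraries (exact permutation p = 1). With mitochondrially encoded counts left out of the total, that class went from a mean of 10.0% in Sham to 7.34% in MI.

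**Figure D2:**
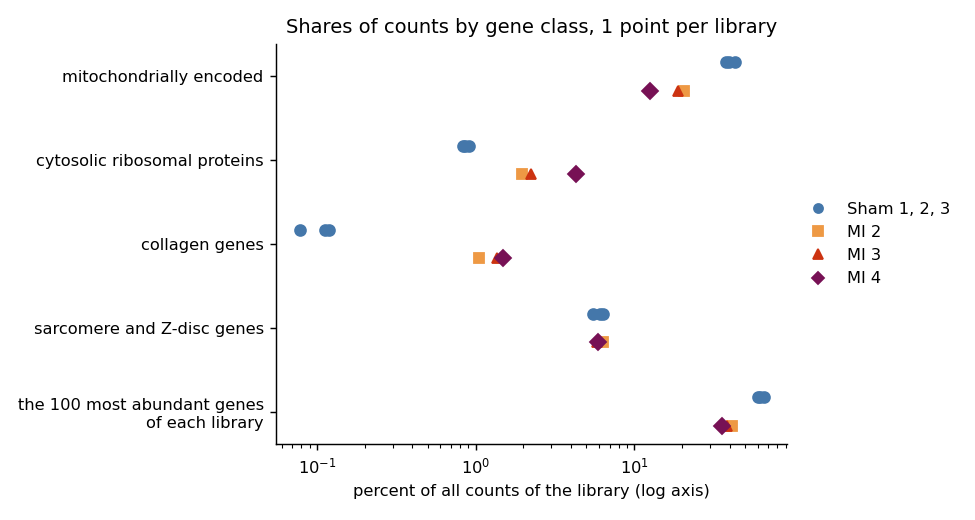
Percent of all counts (log axis) taken by 5 gene classes in each Sham and MI library. The mitochondrially encoded class and the top 100 genes are lower in every MI library, collagen and ribosomal protein genes are higher in every MI library, and the sarcomere and Z-disc class overlaps.

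Broadly expressed forms of many enzymes gained on the heart and muscle forms. A ratio of counts of 2 genes within a library does not depend on library scaling, although it compares no levels between genes, since counts are not per length. In 21 of 24 pairs the ratio of the broad or alternative form to the heart or muscle form was higher in every MI library than in every Sham library, and in 0 it was lower. The pairs were chosen with earlier results of these data known, so this count is no test. Among single genes, 48.9% of those tested did not overlap between the groups. Outside the contractile pairs, ribosomal protein L3 had the largest change in ratio. Coordinates here and below are of the GRCm38 assembly. Rpl3 (chromosome 15, 80077781 to 80083406) over its muscle-specific paralog Rpl3l (chromosome 17, 24727826 to 24736143) gave count ratios of 0.736, 0.539 and 0.772 in the Sham libraries and 7.32, 18.9 and 49.0 in the MI libraries. Each MI value was above each Sham value, and the 3 MI values themselves spanned 7.32 to 49.0. Rpl3 itself rose (log2 fold change 1.89, SE 0.26, adjusted p = 5.77e-04) and Rpl3l fell (-2.80, SE 0.42, adjusted p = 8.97e-04).

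Creatine kinase shifted in the same manner. Ckb, the brain form that many tissues use, over Ckm, the muscle form, gave 0.0186, 0.0183 and 0.0153 in the Sham libraries and 0.115, 0.174 and 0.421 in the MI libraries. For glucose entry, Slc2a1, the transporter of most cells, over Slc2a4, the insulin-regulated transporter of muscle and fat, gave 0.0268, 0.0380 and 0.0247 in the Sham libraries and 0.173, 0.247 and 0.384 in the MI libraries. Ldha over Ldhb, the muscle and heart subunits of lactate dehydrogenase, gave 0.467, 0.332 and 0.335 in the Sham libraries and 1.18, 1.96 and 2.88 in the MI libraries, so that the heart subunit had more counts in every Sham library and fewer in every MI library. Eno1 over Eno3, the broad and muscle enolases, gave 0.155, 0.138 and 0.123 in the Sham libraries and 0.784, 0.933 and 1.42 in the MI libraries. In these pairs MI 4 had the highest ratio, followed by MI 3 and MI 2. Cytochrome c oxidase has such pairs for 3 of its subunits. Cox8a over Cox8b gave 0.821, 0.790 and 0.619 in the Sham libraries and 2.85, 3.54 and 5.32 in the MI libraries, and Cox7a2 over Cox7a1 gave 1.14, 1.14 and 0.982 in the Sham libraries and 3.18, 3.23 and 3.99 in the MI libraries. Cox6a1 over Cox6a2 gave 0.0577, 0.0582 and 0.0468 in the Sham libraries and 0.213, 0.267 and 0.445 in the MI libraries. Fabp5, the fatty acid binding protein of skin and macrophages, over Fabp3, that of heart, gave 0.0164, 0.0104 and 0.0131 in the Sham libraries and 0.0635, 0.124 and 0.206 in the MI libraries. The pairs Eef1a1 over Eef1a2, Pgam1 over Pgam2, Pfkp over Pfkm, Hk1 over Hk2, Cpt1a over Cpt1b, Slc25a5 over Slc25a4, Bcat1 over Bcat2 and Ptbp1 over Rbm24 moved the same way without overlap.

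The contractile pairs were mixed. Myh7, the slow myosin heavy chain of the fetal ventricle, over Myh6, the adult form, gave 0.0185, 0.0192 and 0.0201 in the Sham libraries and 0.0478, 0.0401 and 0.0430 in the MI libraries. Myh7 itself was not called (-0.23, edgeR adjusted p = 0.510), while Myh6 fell (-1.42). Both light chain pairs, Myl7 over Myl2 and Myl4 over Myl3, had higher atrial to ventricular ratios in every MI library, and the Myl4 over Myl3 ratio was 0.301, 0.0617 and 0.261 in the Sham libraries and 0.840, 1.11 and 3.23 in the MI libraries. Neither Myl7 (0.19) nor Myl4 (1.12) was called, while Myl2 (-2.20) and Myl3 (-1.78) fell. Tnni1, the fetal troponin I, over the adult Tnni3 gave at most 2.73e-04 in the Sham libraries and 9.53e-04 to 0.00449 in the MI libraries. Tnni1, at a mean of 0.634 CPM in Sham, was not called (2.00, edgeR adjusted p = 0.163), while Tnni3 fell (-1.58). Acta2 over Actc1, Acta1 over Actc1 and Utrn over Dmd overlapped between the groups. Utrn over Dmd, the ratio of utrophin to dystrophin, was 0.790, 0.606 and 0.587 in the Sham libraries and 0.766, 0.786 and 0.137 in the MI libraries, with MI 4 apart from all others. As each pair had 3 values against 3, no exact test could go below p = 0.1. Reads shared between near-identical copies can blur Eef1a1, Pgam1, Eno1, Ldha and the ribosomal protein genes.

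**Figure D3:**
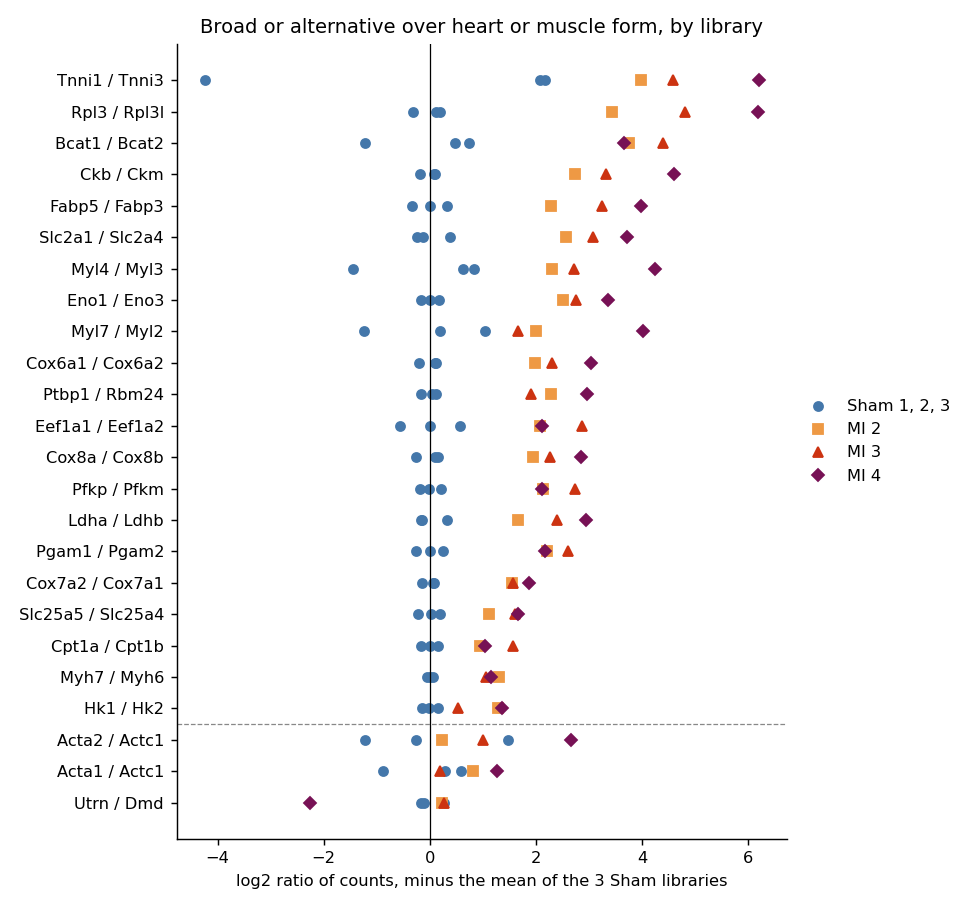
Count ratio of the broad or alternative form to the heart or muscle form for 24 gene pairs in each library, as log2 difference from the mean of the 3 Sham libraries, with 0.5 added to each count. The lone Tnni1 point near -4 is Sham 2, where no Tnni1 read was counted. In 21 pairs all MI points (MI 2, 3 and 4 marked separately) lie above all Sham points, and the last 3 rows overlap.

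With TMM scaling, genes of pyruvate use were mostly lower. Of 13 tested genes of pyruvate entry, oxidation and its control, 12 were lower and 1 higher (median log2 fold change -1.41). With total counts 6 were lower and 1 higher (median log2 fold change -0.57). The list includes kinases that inhibit pyruvate oxidation. Pdha1, a catalytic subunit of pyruvate dehydrogenase, was at 1789.5, 1913 and 2142 CPM in the Sham libraries and 898, 723 and 298 in the MI libraries (log2 fold change -1.61, SE 0.34, adjusted p = 0.00522). Pdk4, the kinase that switches this enzyme off when fat is burned, was at 966, 937 and 1036 CPM in the Sham libraries and 372, 266 and 59.5 in the MI libraries (log2 fold change -2.08, SE 0.50, adjusted p = 0.0108). Its relative Pdk3 was the exception, at 5.81, 4.21 and 6.34 CPM in the Sham libraries and 14.0, 16.2 and 17.6 in the MI libraries (log2 fold change 1.55, SE 0.20, adjusted p = 4.49e-04). In all 3 genes the groups did not overlap. The pyruvate carrier subunits Mpc1 and Mpc2, the dehydrogenase subunit Pdhb and the phosphatase Pdp2 also fell (log2 fold changes -1.89 to -1.29).

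Genes that break down branched-chain amino acids and ketone bodies were lower as well, with 19 of 24 tested genes lower and 1 higher (median log2 fold change -1.51). With total counts 12 were lower and 1 higher (median log2 fold change -0.68). Bcat1, the cytosolic branched-chain aminotransferase of growing cells, rose from 1.75, 0.652 and 2.32 CPM to 14.1, 16.9 and 15.5 CPM (log2 fold change 3.30, SE 0.40, adjusted p = 3.21e-04). It was higher in every MI library. Bckdhb, a subunit of the branched-chain keto acid dehydrogenase, Auh, of leucine breakdown, and Acat1, which splits acetoacetyl-CoA, fell (-1.85 to -1.47). Oxct1, which activates ketone bodies for burning, fell (-1.70), a call that was lost in leave-outs (adjusted p up to 0.0749 without any Sham library or MI 3). Bcat2 (-0.45, called without MI 4 at adjusted p = 0.0310) and Bdh1 (-0.57) were not called, and both values turn positive with total counts.

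Transcriptional regulators of oxidative metabolism were lower too, with 10 of 17 lower and 0 higher (median log2 fold change -0.94, or -0.13 with 3 higher and 4 lower with total counts, and 6 to 11 lower with 1 library left out, moved without Sham 2). Esrrg, an orphan receptor that drives mitochondrial genes in heart, was at 43.6, 49.5 and 49.4 CPM in the Sham libraries and 18.3, 12.0 and 3.73 in the MI libraries (log2 fold change -2.07, SE 0.44, adjusted p = 0.00592). The retinoid receptor Rxrg, the glucocorticoid-responsive factor Klf15 and the muscle regulator Perm1 fell (-1.95 to -1.68), and so did Tfam, which packages mitochondrial DNA (-0.93). Ppargc1a, the coactivator of mitochondrial biogenesis, was at 80.9, 80.9 and 98.9 CPM in the Sham libraries and 45.0, 34.2 and 8.85 in the MI libraries (log2 fold change -1.57, adjusted p up to 0.0751 without any Sham library). Ppara, the fatty acid receptor, had a log2 fold change of -1.35 (adjusted p up to 0.102 without any Sham library, MI 3 or any MI_ART library).

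Carriers of the inner mitochondrial membrane were lower in 11 of 17 cases and higher in 2 (median log2 fold change -1.12, or -0.29 with 6 higher and 5 lower with total counts). Slc25a4, the ADP/ATP carrier of muscle, fell from 4655, 4708 and 5349 CPM to 2279, 1694 and 1677 CPM (log2 fold change -1.38, SE 0.20, adjusted p = 6.72e-04). Slc25a5, the ADP/ATP carrier of other cells, was at 314, 239 and 318 CPM in the Sham libraries and 291, 305 and 312 in the MI libraries and was not called. Slc25a20, which carries acylcarnitine, Slc25a42, which carries coenzyme A, the oxoglutarate carrier Slc25a11, and Slc25a34 fell (-2.19 to -1.28). In the mitochondrial ribosome 36 of 78 genes were lower and 1 higher (median log2 fold change -0.49, but 0.37 with 27 higher and 2 lower with total counts), with Mrps35, Mrpl42, Mrpl39, Mrpl1 and Mrpl47 at -1.36 to -1.00 and the uncalled Mrpl10 and Mrpl11 at -0.44 to -0.27 (Mrpl11 called without MI 4 at adjusted p = 0.00699). Of 13 genes of mitochondrial fusion, fission and mitophagy, 8 were lower and 0 higher (median log2 fold change -0.74, but 0.11 with 3 higher and 2 lower with total counts, and 5 to 9 lower with 1 library left out, moved without Sham 3). Pink1, a kinase that marks damaged mitochondria, was at 529.8, 608 and 457 CPM in the Sham libraries and 182, 129 and 128 in the MI libraries (log2 fold change -1.86, SE 0.19, adjusted p = 1.51e-04). The fusion proteins Mfn1, Mfn2 and Opa1 fell (-1.31 to -1.28).

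Enzymes of NAD supply went in opposite directions. Nampt, the rate-limiting enzyme of NAD salvage from nicotinamide, was at 195, 322 and 352 CPM in the Sham libraries and 104, 80.4 and 42.2 in the MI libraries (log2 fold change -1.94, SE 0.34, adjusted p = 0.00194). Nmrk2 (chromosome 10, 81198170 to 81202265), the muscle kinase that turns nicotinamide riboside into a precursor of NAD, was at 5.68, 3.95 and 3.35 CPM in the Sham libraries and 211, 273 and 318 in the MI libraries (log2 fold change 5.95, SE 0.38, adjusted p = 3.21e-05). Every MI library lay below every Sham library for Nampt and above for Nmrk2. Nnmt, which methylates nicotinamide for disposal, rose (2.30), while the proton-driven transhydrogenase Nnt, the mitochondrial NAD kinase Nadk2 and the synthase Nmnat3 fell (-2.05 to -1.27). Over the list 4 of 18 tested members were higher and 8 lower (median log2 fold change -0.18, but 0.67 with 8 higher and 3 lower with total counts, and -0.37 with 5 higher and 9 lower without MI 4). In the creatine and adenylate kinase list the corresponding numbers were 3 and 4 of 12 (median log2 fold change -0.23, but 0.61 with 5 higher and 2 lower with total counts, and -0.40 with 2 higher and 4 lower without MI 4). The mitochondrial creatine kinase Ckmt2 fell from 2852, 2909.7 and 3559 CPM to 1105, 875 and 462 CPM (log2 fold change -1.93, SE 0.30, adjusted p = 0.00118). Ckm (-2.19) and the adenylate kinase Ak1 (-1.03) fell too, and Ckb (1.45) and Gatm, which starts creatine synthesis (1.86), rose.

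Glycolysis had no common direction. Of 27 tested genes of glucose uptake and glycolysis, 7 were higher and 9 lower (median log2 fold change 0.19, or 1.04 with 16 higher and 4 lower with total counts, and -0.09 with 7 higher and 10 lower without MI 4). Slc16a3, the lactate exporter of glycolytic cells, was at 1.79, 1.56 and 0.919 CPM in the Sham libraries and 34.0, 25.2 and 76.4 in the MI libraries (log2 fold change 4.99, SE 0.52, adjusted p = 1.56e-04). Hk3, the hexokinase of leukocytes, was at 1.31, 0.474 and 1.26 CPM in the Sham libraries and 15.2, 17.6 and 27.8 in the MI libraries (log2 fold change 4.31, SE 0.47, adjusted p = 1.86e-04). Both were higher in every MI library. Slc2a1 (1.54) and Pgam1 (1.60) rose, and Slc2a4 (-1.52) and Pfkfb1, a maker of the glycolytic activator fructose bisphosphate (-2.24), fell. Hk1 (0.23) and Aldoa (-0.45, called without MI 4 at adjusted p = 0.0164, or 0.39 with total counts) were not called.

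Cell division genes were mostly higher. In the list of DNA replication 30 of 35 were higher and 0 lower (median log2 fold change 1.82), and in the list of mitosis 33 of 35 were higher and 0 lower (median log2 fold change 5.02). Ccnb1 (chromosome 13, 100778739 to 100786486), the cyclin that triggers mitosis, was at 0.387, 0.316 and 0.172 CPM in the Sham libraries and 14.5, 21.6 and 21.7 in the MI libraries (log2 fold change 6.04, SE 0.34, adjusted p = 2.56e-05). Top2a, which untangles replicated chromosomes, was at 2.38, 0 and 0.900 CPM in the Sham libraries and 57.9, 97.5 and 67.0 in the MI libraries (log2 fold change 6.07, SE 0.97, adjusted p = 0.00132). Both were higher in every MI library. The proliferation marker Mki67, the mitotic kinase Cdk1, the centromere motor Cenpe and the kinesin Kif22 had log2 fold changes of 4.80 to 5.25. Among replication genes, Mcm5, of the replicative helicase, was at 3.47, 3.65 and 3.39 CPM in the Sham libraries and 29.2, 40.7 and 61.2 in the MI libraries (log2 fold change 3.64, SE 0.30, adjusted p = 7.61e-05), and Mcm2, Mcm3, Mcm6, Rrm2, which makes deoxynucleotides, and the sliding clamp Pcna had log2 fold changes of 1.04 to 2.81.

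Among G1 cyclins, CDK inhibitors and E2F factors 14 of 22 were higher and 2 lower (median log2 fold change 1.00, or 1.88 with 17 higher and 0 lower with total counts, and 9 to 15 higher with 1 library left out, moved without Sham 1). Both drivers and inhibitors of the cycle rose. Cdkn1a (chromosome 17, 29090979 to 29100722), the p53-induced inhibitor p21, was at 5.49, 6.44 and 7.62 CPM in the Sham libraries and 38.3, 37.2 and 69.2 in the MI libraries (log2 fold change 2.89, SE 0.27, adjusted p = 1.10e-04). E2f1 and E2f2, which switch on replication genes, and E2f7, which represses them, rose by 3.13 to 4.51 on the log2 scale. Cdkn1c, the imprinted inhibitor p57, fell (-1.23, SE 0.26, adjusted p = 0.00528). Ccnd1 rose (0.88), which was lost in leave-outs (adjusted p up to 0.0555 without Sham 2 or Sham 3), and Ccnd2 was not called (-0.48, or 0.36 with total counts). Which cells carried these transcripts was not measured.

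Genes of the translation machinery were higher in level and in share. Of 82 cytosolic ribosomal protein genes, 44 were higher and 1, Rpl3l, lower (median log2 fold change 0.79, and 0.41 with 36 higher and 1 lower without MI 4, and 12 to 60 higher with 1 library left out, moved without any Sham library). The median differed between libraries and reached 1.37 in MI 4, against 0.32 and 0.48 in the other MI libraries. Rps12 was at 66.5, 53.4 and 66.1 CPM in the Sham libraries and 119.7, 140.2 and 223 in the MI libraries (log2 fold change 1.38, SE 0.23, adjusted p = 0.00167), and Rpl10, Rpl10a and Rpl22l1 rose by 1.14 to 1.39 on the log2 scale. Rpl11 was not called (0.71, called without MI 2 or MI 3 at adjusted p = 0.0265 and 0.0483). Rplp0, the member with the most counts, rose (0.92; adjusted p up to 0.0696 without any Sham library). In the list of ribosome assembly and translation factors 9 of 22 were higher and 1 lower (median log2 fold change 0.42, and 0.26 with 9 higher and 2 lower without MI 4, and 5 to 9 higher with 1 library left out, moved without Sham 1 or Sham 2). Myc, a driver of ribosome production, was at 3.21, 3.38 and 1.40 CPM in the Sham libraries and 8.36, 8.43 and 12.4 in the MI libraries (log2 fold change 1.87, SE 0.35, adjusted p = 0.00277). Eef1a1, Eif4a1, Fbl and Bop1 rose by 0.96 to 1.55 on the log2 scale, and Ncl was not called (-0.11).

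Amino acid synthesis genes of the integrated stress response, the program that Atf4 runs when translation is restrained, were higher. Over that list 14 of 24 tested members were higher and 2 lower (median log2 fold change 1.13). Phgdh, which opens serine synthesis, was at 1.25, 1.05 and 0.881 CPM in the Sham libraries and 9.06, 12.9 and 25.4 in the MI libraries (log2 fold change 3.90, SE 0.44, adjusted p = 2.14e-04). Mthfd2, of mitochondrial folate metabolism, was at 3.28, 2.33 and 3.20 CPM in the Sham libraries and 15.2, 21.3 and 21.8 in the MI libraries (log2 fold change 2.72, SE 0.23, adjusted p = 8.17e-05). Both were higher in every MI library. Slc7a11, the cystine importer, Pycr1, of proline synthesis, and Asns, which makes asparagine, rose by 1.78 to 4.59 on the log2 scale, and Atf4 itself by 0.90. Ddit3, the stress factor CHOP, was not called (0.08), and Vldlr, a lipoprotein receptor, fell (-2.13, SE 0.34, adjusted p = 0.00138). In the endoplasmic reticulum 11 of 21 genes were higher and 2 lower (median log2 fold change 0.72). The called members with the smallest p included P4hb, a subunit of collagen prolyl hydroxylase (1.55, SE 0.20, adjusted p = 3.94e-04), the translocon subunit Sec61b (2.39) and Edem1 (2.02). Calr rose (0.72; adjusted p = 0.0707 without Sham 2), Herpud1 fell (-1.49), and the master chaperone Hspa5 was not called, at 419.8, 289.6 and 442 CPM in the Sham libraries and 248, 284 and 120.5 in the MI libraries (log2 fold change -0.82, or 0.04 with total counts).

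Proteasome subunits stayed close to the median of all genes with TMM. Of 42 genes 1 was higher and 2 were lower (median log2 fold change 0.01, or 0.87 with 38 higher and 0 lower with total counts, and -0.13 with 1 higher and 3 lower without MI 4). The member that rose was Psmb8, the inducible subunit of the immunoproteasome, at 11.3, 10.5 and 14.1 CPM in the Sham libraries and 18.9, 22.9 and 44.5 in the MI libraries (log2 fold change 1.27, SE 0.31, adjusted p = 0.0121). Psme4 fell (-1.43, SE 0.33, adjusted p = 0.00853), and Psmd12 fell (-0.43, but 0.42 with total counts, and adjusted p up to 0.130 without any Sham library, MI 2, MI 3 or any MI_ART library). Psma1, Psma2 and Psma3 were not called (-0.39 to -0.09, all positive with total counts).

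Immediate early transcription factors, which cells switch on within minutes of a stimulus, were higher in 16 of 19 cases and lower in 0 (median log2 fold change 1.62). Fos was at 1.11, 0.296 and 0.153 CPM in the Sham libraries and 18.0, 11.4 and 10.0 in the MI libraries (log2 fold change 4.65, SE 0.63, adjusted p = 5.54e-04). Junb, its partner, was at 10.9, 11.3 and 7.10 CPM in the Sham libraries and 40.5, 42.5 and 84.7 in the MI libraries (log2 fold change 2.52, SE 0.31, adjusted p = 3.39e-04). The groups did not overlap for either gene. Fosl1 had no counts in Sham and 0.786, 0.804 and 1.09 CPM in the MI libraries, at least 15.6-fold higher against a floor of 3 counts per library. Egr1, Egr2, Fosl2 and Ier3 rose by 1.36 to 4.42 on the log2 scale, and Jund rose (1.11; adjusted p = 0.0719 without Sham 3). How long each heart was handled before its RNA was fixed is not stated in the labels.

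Signals of the interleukin 6 family rose too, with 10 of 15 genes higher and 2 lower (median log2 fold change 1.56). Socs3, the feedback inhibitor that this pathway induces, was at 4.37, 3.95 and 3.66 CPM in the Sham libraries and 23.9, 29.6 and 61.2 in the MI libraries (log2 fold change 3.26, SE 0.34, adjusted p = 1.64e-04). Il6 was at 0.0737, 0 and 0 CPM in the Sham libraries and 2.24, 3.40 and 4.73 in the MI libraries (log2 fold change 7.01, SE 0.84, adjusted p = 3.00e-04). The cytokines Lif and Clcf1 and the oncostatin M receptor Osmr rose by 0.84 to 3.20 on the log2 scale, and the shared receptor Il6st was not called (-0.22, or 0.63 with total counts). Of 25 chemokine ligands 19 were higher and 2 lower (median log2 fold change 3.27), and of 10 chemokine receptors 5 were higher and 1 lower (median log2 fold change 1.70, or 2.59 with 7 higher and 0 lower with total counts). Ccl9 was at 6.01, 6.79 and 7.10 CPM in the Sham libraries and 144, 97.9 and 126 in the MI libraries (log2 fold change 4.21, SE 0.34, adjusted p = 7.61e-05), and Pf4, the platelet and macrophage chemokine, was at 10.2, 9.28 and 13.3 CPM in the Sham libraries and 76.6, 83.5 and 135 in the MI libraries (log2 fold change 3.17, SE 0.33, adjusted p = 1.49e-04). Ccl6, the monocyte attractant Ccl7 and the neutrophil attractant Cxcl5 rose by 4.33 to 5.28 on the log2 scale, while Cxcl12, the constant ligand of Cxcr4, was not called (0.27). Among receptors, Ccr2, of blood monocytes, was at 4.13, 4.72 and 6.59 CPM in the Sham libraries and 71.0, 69.2 and 69.8 in the MI libraries (log2 fold change 3.77, SE 0.20, adjusted p = 2.56e-05). Ccr1 and Cxcr4 rose by 1.39 to 3.81 on the log2 scale, the scavenger receptor Ackr3 fell (-1.00), and Cx3cr1 was not called (0.15).

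Markers of recruited monocytes and macrophages were higher in 10 of 10 cases (median log2 fold change 4.23), and their summed level was 63.5 to 82.1 CPM in Sham and 616 to 731 CPM in MI. Arg1, an arginase of wound macrophages, was at 0.406, 0.0790 and 0 CPM in the Sham libraries and 334, 161 and 115 in the MI libraries (log2 fold change 10.26, SE 1.14, adjusted p = 2.05e-04). Trem2, a lipid sensor of phagocytes, was at 2.62, 3.06 and 3.49 CPM in the Sham libraries and 52.9, 55.0 and 107 in the MI libraries (log2 fold change 4.55, SE 0.35, adjusted p = 6.27e-05). Neither gene overlapped between the groups. Chil3, Plac8, Gpnmb and Ly6c2 rose by 1.52 to 7.52 on the log2 scale. Of resident macrophage markers, 4 of 9 were higher and 1 lower (median log2 fold change 0.92, or 1.75 with 7 higher and 0 lower with total counts, and 0.29 with 4 higher and 0 lower without MI 4), and their summed level was 286 to 348 CPM in Sham and 469.7 to 662 CPM in MI. Folr2, Mrc1, Vsig4 and F13a1 rose by 1.34 to 2.13 on the log2 scale. Lyve1, shared with lymphatic vessels, fell (-0.71, but 0.14 with total counts; adjusted p up to 0.143 without Sham 1, Sham 3, MI 3, MI 4 or any MI_ART library), and Timd4 (-0.70) and Gas6 (0.41) were not called. Whether the 2 lists differ in their change was not tested.

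The part of the macrophage markers in the lysosomal, complement and eicosanoid values that follow was not tested. Of 23 lysosomal genes 17 were higher and 0 lower (median log2 fold change 1.51). Ctss, the cathepsin of antigen-presenting cells, was at 19.9, 15.5 and 27.1 CPM in the Sham libraries and 291, 309.9 and 252 in the MI libraries (log2 fold change 3.77, SE 0.37, adjusted p = 1.22e-04), and Ctsb, Ctsd, Lgmn and Laptm5 rose by 1.07 to 3.29 on the log2 scale. Lamp1, a membrane protein of all lysosomes, was not called (0.25). In the complement list 8 of 19 tested members were higher and 2 lower (median log2 fold change 1.20, or 2.04 with 16 higher and 0 lower with total counts, and 0.48 with 8 higher and 1 lower without MI 4). C1qb, of the first complement component that macrophages make, was at 42.8, 36.1 and 40.7 CPM in the Sham libraries and 279, 287 and 514 in the MI libraries (log2 fold change 3.17, SE 0.30, adjusted p = 1.17e-04), and C1qa, C1qc, the receptor C3ar1 and properdin Cfp rose by 2.56 to 3.82 on the log2 scale. C3 was not called (0.70). Of 14 genes of prostaglandin and leukotriene synthesis 11 were higher and 2 lower (median log2 fold change 1.72). Alox5ap, the activator of leukotriene synthesis, was at 7.43, 6.20 and 10.1 CPM in the Sham libraries and 83.7, 68.9 and 95.7 in the MI libraries (log2 fold change 3.39, SE 0.32, adjusted p = 1.10e-04), the thromboxane synthase Tbxas1 rose by 3.59 on the log2 scale and the inducible cyclooxygenase Ptgs2 by 2.48. Ptges rose (1.32; adjusted p = 0.0578 without Sham 3), and Ptgds, which makes prostaglandin D, fell (-1.82, SE 0.23, adjusted p = 3.59e-04).

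Clotting genes were higher in 13 of 20 cases and lower in 1 (median log2 fold change 2.14). Anxa2, a plasminogen receptor on the cell surface, was at 81.6, 73.4 and 73.4 CPM in the Sham libraries and 472, 516 and 849.9 in the MI libraries (log2 fold change 3.01, SE 0.25, adjusted p = 8.36e-05), and its partner S100a10 rose by 2.31 on the log2 scale. Plau and its receptor Plaur, which start fibrinolysis, rose (2.48 to 3.57). F7, a clotting factor that tissue factor activates, was at 0, 0.0790 and 0 CPM in the Sham libraries and 10.7, 7.17 and 8.95 in the MI libraries. F3, tissue factor, was the member that fell, at 31.0, 32.7 and 40.6 CPM in the Sham libraries and 16.3, 14.0 and 8.49 in the MI libraries (log2 fold change -1.43, SE 0.24, adjusted p = 0.00166).

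Lymphocyte markers were low in all libraries. Of 18 tested T and NK cell markers 1, Klrb1c, was higher and 1, Ctla4, lower (median log2 fold change 0.22, or 1.01 with 4 higher and 1 lower with total counts, and -0.39 with 1 higher and 1 lower without MI 4), and their summed level was 14.5 to 17.3 CPM in Sham and 10.1 to 12.3 CPM in MI. Cd3e was at 0.0737, 0.277 and 0.268 CPM in the Sham libraries and 0.148, 0.0751 and 0.291 in the MI libraries, and Cd8a, Nkg7 and Cd28 were not called either (Cd28 called without MI 2 at adjusted p = 0.0355). Of 10 B and plasma cell markers 2, Cd79a (1.77) and Cd79b (1.79), were higher, and none without MI 4 (adjusted p = 0.167 and 0.0768). Over all libraries left out in turn, Cd79a had adjusted p up to 0.167 without any Sham library, MI 4 or MI_ART 1 and Cd79b adjusted p up to 0.0768 without Sham 2, Sham 3 or MI 4. Ms4a1 (1.15) and Jchain (2.60, called without MI 2 at adjusted p = 0.0213) were not called. Of 24 interferon-induced genes 10 were higher, 1 was lower and 13 were not called (median log2 fold change 0.37). The share called was 45.8%, beside 33.1% of all genes. With total counts 21 were higher and 0 lower (median log2 fold change 1.22). Oas1a, Mx1, Oasl2, Isg15, Irf7 and Ifitm3 rose by 1.22 to 2.46 on the log2 scale, Ifit1 was not called (0.20) and Gbp5 fell (-1.18).

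**Figure D4:**
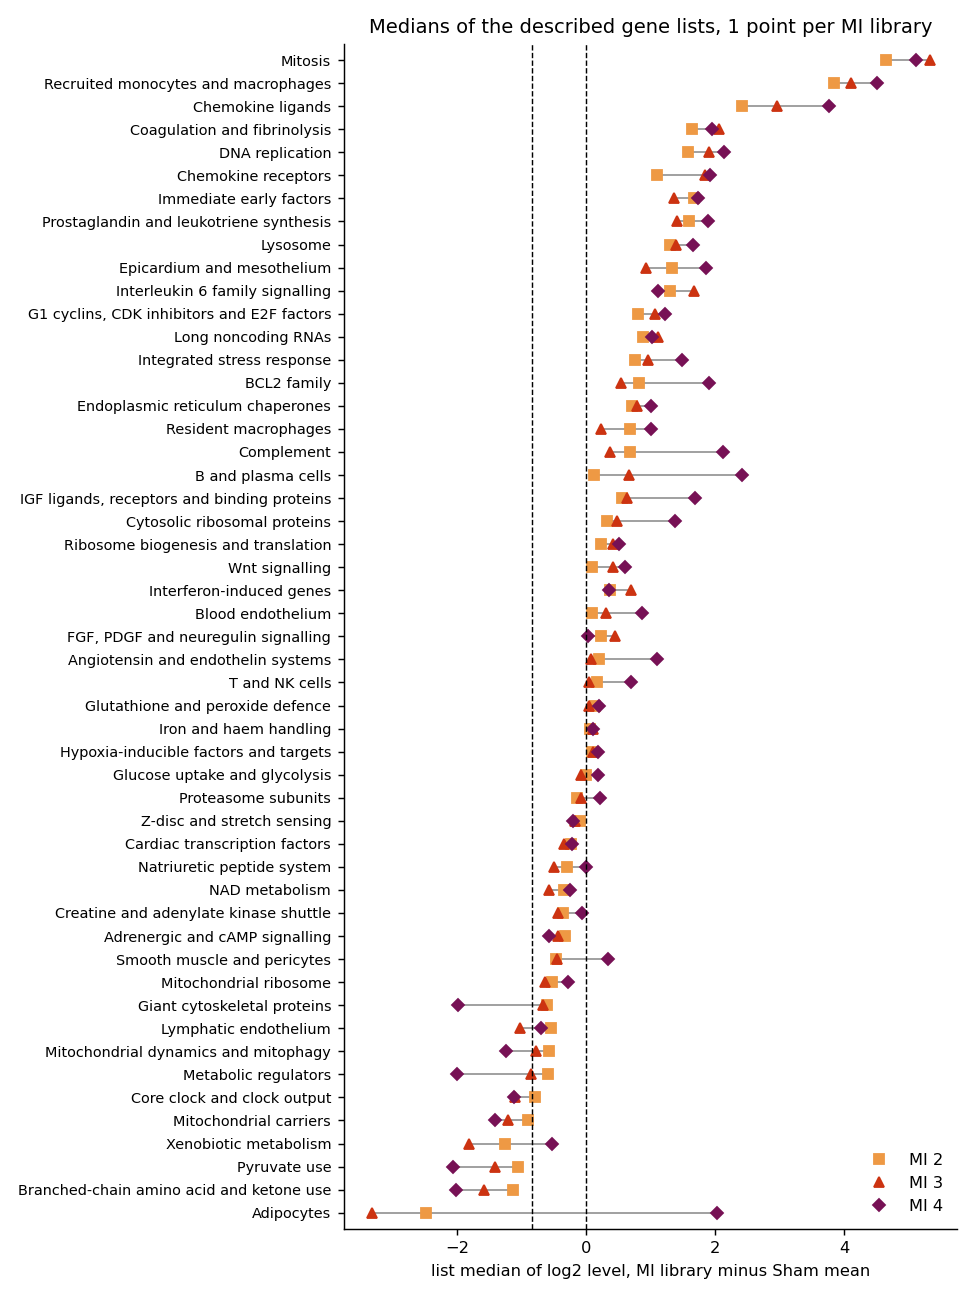
Median log2 fold change of each described gene list against the Sham mean, with 1 point per MI library and a bar from the lowest to the highest. The dashed lines mark 0 and -0.85, between which total counts turn the sign, and MI 4 stands apart from MI 2 and MI 3 for adipocyte, ribosomal protein and giant cytoskeletal genes.

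Of 27 blood endothelial genes 7 were higher and 5 lower (median log2 fold change 0.48, or 1.33 with 22 higher and 0 lower with total counts, and 0.12 with 8 higher and 5 lower without MI 4, with 44.4% called beside 33.1% of all genes, and 2 to 5 lower with 1 library left out, moved without any Sham library or any MI_ART library). Pecam1, an adhesion protein of all endothelium, was at 175, 165 and 175 CPM in the Sham libraries and 146, 221 and 234 in the MI libraries and was not called, nor was Cdh5 (0.14). Selp, the selectin that catches leukocytes, was at 1.68, 2.11 and 1.40 CPM in the Sham libraries and 7.12, 6.65 and 19.6 in the MI libraries (log2 fold change 2.68, SE 0.42, adjusted p = 0.00118), and the adhesion molecules Vcam1 and Icam1 rose by 1.07 to 1.11 on the log2 scale. Rgcc fell (-1.30, SE 0.19, adjusted p = 7.57e-04), and Kdr, the main VEGF receptor, fell (-0.83, but 0.01 with total counts; adjusted p up to 0.0979 without any Sham library or any MI_ART library). Of 8 lymphatic markers 4 were lower and 1, Pdpn (2.31), which fibroblasts and macrophages also make, was higher (median log2 fold change -0.81, but 0.04 with 3 higher and 1 lower with total counts, and 2 to 4 lower with 1 library left out, moved without Sham 1 or MI 3). Mmrn1 (-1.85) and Reln (-1.23) fell, as did Prox1, the lymphatic master factor that heart muscle also expresses (-1.44; adjusted p up to 0.0722 without Sham 1, Sham 2 or MI 3). Flt4 (0.54, called without Sham 2 at adjusted p = 0.0362) and Ccl21a (-0.91, called without MI 4 at adjusted p = 0.00484) were not called.

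In the smooth muscle and pericyte list the called members were 3 of the pericyte genes, and the other pericyte genes were not called. Of 14 genes 3 were lower and 0 higher, with 21.4% called beside 33.1% of all genes. The median log2 fold change was -0.42, but 0.40 with 3 higher and 3 lower with total counts. Abcc9, a subunit of the ATP-sensitive potassium channel that muscle also expresses, was at 254, 293 and 308 CPM in the Sham libraries and 82.6, 61.2 and 24.1 in the MI libraries (log2 fold change -2.35, SE 0.37, adjusted p = 0.00126). Its pore partner Kcnj8 was at 42.8, 44.9 and 42.4 CPM in the Sham libraries and 17.9, 13.9 and 12.1 in the MI libraries (log2 fold change -1.57, SE 0.17, adjusted p = 1.98e-04), and Rgs5 was at 863, 850.1 and 946 CPM in the Sham libraries and 379, 359.8 and 178 in the MI libraries (log2 fold change -1.54, SE 0.26, adjusted p = 0.00171). All 3 were lower in every MI library. The contractile smooth muscle genes Myh11 (-1.24) and Acta2 (0.57) were not called. In the epicardial and mesothelial list 7 of 13 were higher and 0 lower (median log2 fold change 1.20). Aldh1a2, which makes retinoic acid in the epicardium, was at 14.6, 8.73 and 11.2 CPM in the Sham libraries and 58.1, 58.7 and 51.8 in the MI libraries (log2 fold change 2.29, SE 0.25, adjusted p = 1.87e-04), and the keratins Krt18 and Krt19 and the fibroblast factor Tcf21 rose by 1.40 to 2.65 on the log2 scale. The more restricted surface markers Wt1, Upk3b and Msln were not called (0.14 to 1.20, with Msln called without MI 3 or MI_ART 3 at adjusted p = 0.0442 and 0.0382).

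Adipocyte markers divided the MI libraries. None of the 10 was called. Adipoq, an adipocyte hormone, was at 15.2, 10.9 and 7.20 CPM in the Sham libraries and 1.36, 3.20 and 48.1 in the MI libraries, and the summed level of the list was 238.6, 199.0 and 110.1 CPM in Sham and 45.1, 36.4 and 718 CPM in MI. MI 2 and MI 3 were thus below every Sham library and MI 4 above. Without MI 4, 3 of 10 were lower, and the median log2 fold change went from 0.27 to -3.06. Plin1, which coats fat droplets, had a log2 fold change of 0.18 over all libraries and of -4.94 without MI 4 (adjusted p = 0.0451). Ucp1, of brown fat, was at 14.0, 27.6 and 7.10 CPM in the Sham libraries and 0, 0 and 15.3 in the MI libraries and was not called in the full fit (called without MI 4 at adjusted p = 0.0257), and Car3 (0.54) was not called.

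Genes through which nerves set heart rate and contractility went both ways. Of 22 genes of adrenergic and cAMP signalling 10 were lower and 3 higher (median log2 fold change -0.53, but 0.29 with 9 higher and 1 lower with total counts, and 5 to 10 lower with 1 library left out, moved without Sham 1, Sham 2 or MI 3). Adra1a, an alpha adrenergic receptor of heart muscle, was at 11.8, 15.0 and 11.1 CPM in the Sham libraries and 3.81, 1.78 and 1.19 in the MI libraries (log2 fold change -2.49, SE 0.39, adjusted p = 0.00112). Pde3a, which breaks down cAMP, fell (-1.24, SE 0.28, adjusted p = 0.00770), and so did the protein kinase A subunit Prkaca (-0.88, or -0.05 with total counts). Pde1a (1.18) and the inhibitory G protein Gnai2 (1.03) rose. Chrm2, the muscarinic receptor through which the vagus slows the atria, fell (-1.09; adjusted p up to 0.0995 without Sham 1, Sham 3 or MI 3). Adrb1, the main beta receptor, was at 11.1, 10.7 and 8.10 CPM in the Sham libraries and 8.97, 7.71 and 6.07 in the MI libraries and was not called, nor was Prkar1a (0.36, called without MI 4 at adjusted p = 0.00818).

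Vasoactive peptide systems changed member by member. In the angiotensin and endothelin list 4 of 13 tested members were higher and 3 lower (median log2 fold change -0.23, but 0.59 with 6 higher and 2 lower with total counts). Edn1, the constrictor endothelin 1, was at 5.14, 4.98 and 4.69 CPM in the Sham libraries and 14.0, 11.6 and 18.8 in the MI libraries (log2 fold change 1.58, SE 0.24, adjusted p = 9.27e-04), and the bradykinin receptor Bdkrb2 rose by 2.97 on the log2 scale. Nr3c2, the mineralocorticoid receptor, was at 30.5, 39.8 and 35.6 CPM in the Sham libraries and 9.06, 7.62 and 3.44 in the MI libraries (log2 fold change -2.40, SE 0.32, adjusted p = 5.04e-04). It was lower in every MI library. Ace rose (0.75; adjusted p = 0.0578 without Sham 3), while Agtr1a (-1.86, called without MI 4 at adjusted p = 0.0437) and Ece1 (0.73, called without MI 2 at adjusted p = 0.0227) were not called. Among 8 tested genes of the natriuretic peptide system 2 were higher and 3 lower (median log2 fold change -0.25, but 0.58 with 4 higher and 1 lower with total counts, and -0.40 with 2 higher and 3 lower without MI 4). Mme, the neprilysin that breaks these peptides down, was at 13.1, 16.8 and 16.9 CPM in the Sham libraries and 1.87, 1.73 and 2.68 in the MI libraries (log2 fold change -2.90, SE 0.43, adjusted p = 8.31e-04), and Corin, which activates the atrial peptide, was at 247, 229 and 268 CPM in the Sham libraries and 127, 85.4 and 37.1 in the MI libraries (log2 fold change -1.58, SE 0.36, adjusted p = 0.00866). Furin, another processing protease, rose (1.16), as did Nppb (2.82). Nppa was at 4872, 1177 and 3972 CPM in the Sham libraries and 11540.0, 11451 and 20599 in the MI libraries and was not called in the full fit (called without MI_ART 2 or MI_ART 3 at adjusted p = 0.0133 and 0.0332), and neither was the clearance receptor Npr3 (-1.15, called without Sham 2, MI 2 or MI_ART 2 at adjusted p = 0.0429, 0.0340 and 0.0483).

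Growth factor lists were divided. Of 26 genes of FGF, PDGF and neuregulin signalling 7 were higher and 6 lower (median log2 fold change 0.17, or 1.00 with 13 higher and 1 lower with total counts). Nrg1 and Ereg, ligands of the EGF family, rose, with Nrg1 at 1.59, 1.32 and 1.90 CPM in the Sham libraries and 6.04, 6.12 and 7.18 in the MI libraries (log2 fold change 2.01, SE 0.28, adjusted p = 5.88e-04), Ereg up by 4.03 on the log2 scale and the receptor Egfr up by 1.35 on the log2 scale. The heart-expressed Fgf1 fell from 198, 200.4 and 255 CPM to 104, 88.0 and 43.7 CPM (log2 fold change -1.47, SE 0.29, adjusted p = 0.00402), and Fgf16 fell too (-1.78). Fgf2 (-0.91) and Pdgfa (0.25) were not called. In the Wnt list 6 of 22 tested members were higher and 3 lower (median log2 fold change 0.49, or 1.33 with 12 higher and 1 lower with total counts, with 40.9% called beside 33.1% of all genes). Secreted Wnt binders led it, with Sfrp2 at 3.56, 5.91 and 3.24 CPM in the Sham libraries and 34.2, 32.1 and 41.9 in the MI libraries (log2 fold change 3.09, SE 0.32, adjusted p = 1.56e-04) and Sfrp1 up by 2.04 on the log2 scale, and with Wif1 down (-2.31). The receptor Fzd2 rose (2.01), Wnt5a fell (-0.90; adjusted p up to 0.173 without Sham 1, Sham 2, MI 3, MI 4, MI_ART 1 or MI_ART 2), and the pathway target Axin2 (-0.58) and beta-catenin, Ctnnb1 (-0.41, called without MI 3 at adjusted p = 0.0137), were not called and turn positive with total counts. In the insulin-like growth factor list 5 of 14 tested members were higher and 1 lower (median log2 fold change 1.16, or 2.00 with 10 higher and 0 lower with total counts, and 0.45 with 5 higher and 0 lower without MI 4, with 42.9% called beside 33.1% of all genes). Igf1 was at 27.0, 18.3 and 30.1 CPM in the Sham libraries and 75.3, 73.5 and 75.2 in the MI libraries (log2 fold change 1.57, SE 0.21, adjusted p = 5.31e-04), Igfbp7, Igfbp3 and Igf2bp2 rose by 1.05 to 1.60 on the log2 scale, and Igf2 was not called (1.04, called without MI 2 at adjusted p = 0.0464).

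Transcription factors that define heart muscle and its chambers were seldom called, with 1 of 23 higher and 1 lower (median log2 fold change -0.29, but 0.53 with 9 higher and 0 lower with total counts). Gata4 was at 119.8, 112 and 89.2 CPM in the Sham libraries and 115, 97.2 and 91.4 in the MI libraries, Nkx2-5 was at 28.7, 33.0 and 18.1 CPM in the Sham libraries and 35.0, 22.8 and 56.6 in the MI libraries, and Tbx5 was at 38.1, 23.6 and 26.4 CPM in the Sham libraries and 27.5, 19.1 and 25.5 in the MI libraries. The groups overlapped for all 3, and none of them nor Mef2a (-0.85, called without MI 2 or MI 4 at adjusted p = 0.0253 and 0.00547, or -0.02 with total counts) was called. Hey2, a ventricular factor, fell (-1.42, SE 0.33, adjusted p = 0.00869), and Tbx18, an epicardial factor, rose (0.79; adjusted p up to 0.134 without Sham 2, Sham 3, MI 2, MI 3, MI_ART 1 or MI_ART 3). Z-disc and stretch genes went both ways, with 4 of 21 higher and 7 lower (median log2 fold change -0.10, but 0.73 with 12 higher and 2 lower with total counts, and 1 to 6 higher with 1 library left out, moved without Sham 3). Tcap, which caps titin at the Z-disc, was at 2143, 2224 and 2384 CPM in the Sham libraries and 584, 515 and 629 in the MI libraries (log2 fold change -1.97, SE 0.24, adjusted p = 3.10e-04), and Myoz2 and Cavin4 fell (-1.38 to -1.05). Ankrd2, a stretch-responsive partner of titin, rose from 0.147, 0.158 and 0.268 CPM to 1.71, 0.954 and 3.07 CPM. Des, the muscle intermediate filament, was at 1436, 1547 and 1084 CPM in the Sham libraries and 2201, 2116 and 5423 in the MI libraries (log2 fold change 1.26; adjusted p up to 0.0804 without Sham 1 or Sham 3). Csrp3 fell (-0.74, but 0.12 with total counts; adjusted p up to 0.0751 without Sham 1, Sham 3 or MI 3), Ankrd1 rose (0.70; adjusted p up to 0.131 without any Sham library, MI 2, MI 3 or MI_ART 1) and Xirp2 was not called (0.22).

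The longest cytoskeletal transcripts set MI 4 apart. Of 13 genes for giant proteins 5 were lower and 0 higher (median log2 fold change -0.82, but 0.02 with 1 higher and 0 lower with total counts, with 38.5% called beside 33.1% of all genes, and 2 to 7 lower with 1 library left out, moved without any Sham library, MI 3, MI_ART 2 or MI_ART 3), and MI 4 had a list median of -1.99, against -0.61 and -0.67 in MI 2 and MI 3. Ttn, titin, was at 4333, 2867 and 4546 CPM in the Sham libraries and 2358, 1269 and 178 in the MI libraries and was not called in the full fit (adjusted p = 0.0932, but called without MI 2 or MI 4 at adjusted p = 0.0289 and 0.0368). Ank2, an anchor of channels and pumps, fell (-1.47, SE 0.29, adjusted p = 0.00393). Ank3 (-1.06; adjusted p up to 0.0565 without Sham 1 or Sham 2) and Nebl (-1.25; adjusted p up to 0.1001 without any Sham library, MI 3, MI_ART 2 or MI_ART 3) fell, and Dmd was not called (-0.25). Whether transcript length or RNA quality bears on this was not tested.

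With TMM scaling, circadian clock genes were mostly lower. Of 19 genes 12 were lower and 1, Arntl, higher (median log2 fold change -1.05, or -0.21 with 4 higher and 4 lower with total counts). Arntl (chromosome 7, 113178471 to 113314126), whose protein drives the others as part of a dimer, was at 6.75, 4.82 and 3.35 CPM in the Sham libraries and 11.0, 10.3 and 6.38 in the MI libraries (log2 fold change 0.89, SE 0.30, adjusted p = 0.0431). Arntl lies outside the naming rule and was picked after its value was seen, and its call was lost in 7 of 9 leave-outs (adjusted p up to 0.137 without Sham 2, Sham 3, MI 2, MI 3 or any MI_ART library). Dbp (chromosome 7, 45705100 to 45710203), an output factor that the clock drives, was at 114, 155 and 124 CPM in the Sham libraries and 33.4, 34.8 and 44.8 in the MI libraries (log2 fold change -1.80, SE 0.25, adjusted p = 6.82e-04). Hlf, its relative, was at 35.2, 28.5 and 30.9 CPM in the Sham libraries and 7.95, 4.77 and 5.98 in the MI libraries (log2 fold change -2.34, SE 0.23, adjusted p = 1.24e-04). Dbp and Hlf were lower in every MI library than in every Sham library, while Arntl in MI 4 lay below Sham 1. The repressors Per2, Per3 and Nr1d2 and the output factor Tef fell (-1.63 to -1.15), and Nr1d1 fell (-1.03; adjusted p up to 0.0555 without Sham 1, Sham 2, MI 2 or MI 3). The hour of harvest is not stated in the labels, so a difference in hour and the group cannot be told apart.

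**Figure D5:**
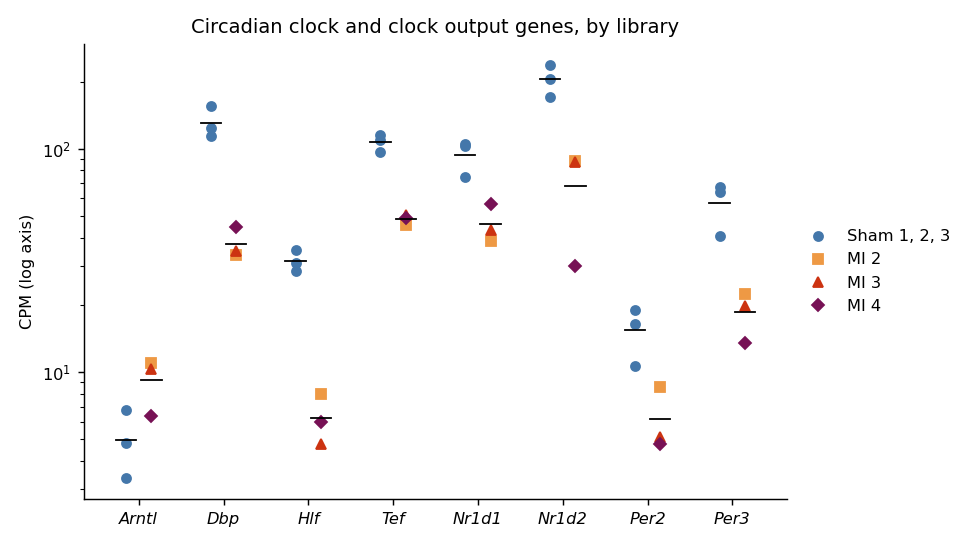
CPM (log axis) of 8 circadian clock and clock output genes in each Sham and MI library, with a black bar at each group mean. Arntl is higher in the MI mean with an overlap of MI 4 and Sham 1, and the other genes are lower in the MI mean. Dbp and Hlf are among those that do not overlap. Of the 19 tested clock genes 15 do not overlap, beside 48.9% of all tested genes.

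In the iron and haem list 5 of 24 tested members were higher and 5 lower (median log2 fold change 0.13, or 0.97 with 13 higher and 1 lower with total counts, and 0.02 with 4 higher and 4 lower without MI 4, with 41.7% called beside 33.1% of all genes). Hmox1 (chromosome 8, 75093618 to 75100593), which breaks haem down, was at 10.4, 11.5 and 11.0 CPM in the Sham libraries and 232, 288 and 376 in the MI libraries (log2 fold change 4.77, SE 0.29, adjusted p = 3.16e-05). Ftl1, the ferritin light chain, was at 188, 176 and 191 CPM in the Sham libraries and 802, 814 and 2039 in the MI libraries (log2 fold change 2.72, SE 0.37, adjusted p = 5.56e-04), and its count may include reads of near-identical copies. Fech, the last enzyme of haem synthesis, and Slc40a1, the iron exporter, fell (-1.56 to -1.05), and Lcn2, which binds bacterial iron carriers, rose (2.66). Tfrc (0.11) and Fth1 (0.28) were not called. In the glutathione and peroxide list 10 of 27 tested members were higher and 8 lower (median log2 fold change 0.11, or 0.96 with 16 higher and 4 lower with total counts). Sod2, the mitochondrial superoxide dismutase, was at 581, 580.4 and 629 CPM in the Sham libraries and 249, 229 and 149 in the MI libraries (log2 fold change -1.52, SE 0.21, adjusted p = 6.35e-04), while the cytosolic peroxidase Gpx1 rose by 2.10 on the log2 scale and the secretory pathway peroxidase Gpx7 by 2.40. Gclc (-0.10) and Gpx3 (0.93, called without MI 3 at adjusted p = 0.0284) were not called.

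Hypoxia-inducible factors and their targets did not move together. Of 20 genes 3 were higher and 5 lower (median log2 fold change 0.26, or 1.10 with 13 higher and 1 lower with total counts, and 0.13 with 5 higher and 5 lower without MI 4, with 40.0% called beside 33.1% of all genes, and 3 to 5 higher with 1 library left out, moved without MI 4). Car9, a carbonic anhydrase, rose from 0.866, 0.138 and 0.287 CPM to 3.84, 2.88 and 4.90 CPM (log2 fold change 3.16, SE 0.58, adjusted p = 0.00277) and P4ha1, a collagen hydroxylase, rose by 1.21 on the log2 scale. Egln1, the oxygen-sensing hydroxylase, was at 322, 379 and 297 CPM in the Sham libraries and 135, 106 and 75.7 in the MI libraries (log2 fold change -1.65, SE 0.22, adjusted p = 4.76e-04), and Epas1 fell (-1.24). Hif1a (0.72, called without MI 4 at adjusted p = 5.51e-04), Vegfa (-0.63, called without MI 2 at adjusted p = 0.0262, or 0.20 with total counts), Egln3 (-0.20) and Ldha (0.31) were not called. In the BCL2 family 7 of 15 tested members were higher and 1 lower (median log2 fold change 1.04, and 0.35 with 7 higher and 0 lower without MI 4). The pore-forming Bax was at 16.6, 16.7 and 18.2 CPM in the Sham libraries and 34.1, 39.9 and 96.1 in the MI libraries (log2 fold change 1.72, SE 0.36, adjusted p = 0.00485), and the death-promoting members Bok, Bid and Pmaip1 and the leukocyte survival gene Bcl2a1b rose by 2.15 to 4.89 on the log2 scale. Bcl2 (0.17) and Mcl1 (0.07) were not called.

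Among 12 long noncoding RNA genes 7 were higher and 1 lower (median log2 fold change 0.99, or 1.86 with 8 higher and 0 lower with total counts). Meg3, an imprinted transcript, was at 15.0, 20.2 and 13.4 CPM in the Sham libraries and 62.7, 60.8 and 110.5 in the MI libraries (log2 fold change 2.27, SE 0.28, adjusted p = 3.21e-04), and Rian and Mirg of the same imprinted locus rose by 1.94 to 2.90 on the log2 scale. H19 rose (2.13; adjusted p = 0.0555 without Sham 3), Snhg5 rose (1.20), Neat1 was not called (-0.49) and Malat1 fell (-0.74, but 0.09 with total counts). In the xenobiotic list 1 of 12 tested members was higher and 7 were lower (median log2 fold change -0.88, and -1.54 with 1 higher and 9 lower without MI 4). With total counts 1 was higher and 5 were lower, with a median of -0.02. Ces1d, a carboxylesterase that mobilises stored fat, was at 160.2, 187 and 169 CPM in the Sham libraries and 13.4, 7.88 and 16.1 in the MI libraries (log2 fold change -3.79, SE 0.36, adjusted p = 1.17e-04), Cyp4b1 and Aox1 fell (-1.85 to -1.78), and Inmt fell (-5.19). Cyp1a1 was at 1.59, 1.62 and 2.03 CPM in Sham and 0 in MI, at least 53.1-fold lower against the floor, and Cyp1b1 rose (2.00; adjusted p up to 0.0846 without Sham 2 or MI 3).

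The remaining lists are given by counts, as higher and lower of those tested. Over all tested genes 18.8% were higher and 14.3% lower, 33.1% in all. Dendritic cell markers and zinc handling, at 33.3% called each, and mitochondrial import, at 38.9%, were close to that share. Red cell and platelet markers (28.6%), splicing regulators (26.3%) and cytosolic heat shock proteins (22.2%) were below it. Mitochondrial import had 0 and 7 of 18, cytosolic heat shock proteins 3 and 1 of 18, and splicing regulators 1 and 4 of 19. With total counts these were 9 and 0, 12 and 0, and 9 and 1. Antigen presentation had 9 and 0 of 14, dendritic cell markers 2 and 0 of 6, and mast cell markers 0 and 0 of 5. Atrial muscle markers had 0 and 1 of 17 and ventricular muscle markers 0 and 3 of 4. The atrial calls varied with single libraries left out, at 0 to 1 higher and 0 to 2 lower. The summed level of the atrial markers, which include Nppa, was 2103 to 8269 CPM in Sham and 13833 to 25861 CPM in MI. That of the ventricular markers was 7131 to 8041 CPM in Sham and 1371 to 2536 CPM in MI. With total counts the atrial markers had 4 and 0 and the ventricular markers 0 and 2. Red cell and platelet markers had 2 and 0 of 7, cartilage and bone matrix 4 and 0 of 7, and zinc handling 5 and 0 of 15. Schwann cell and neuron markers had 1 and 0 of 9, skeletal muscle genes 2 and 0 of 12, and lung and thymus markers 1 and 0 of 1. With single libraries left out, antigen presentation had 5 to 11 higher (moved without Sham 2), zinc handling 3 to 5 higher (without Sham 1 or Sham 2), splicing regulators 2 to 4 lower (without Sham 1, Sham 2 or Sham 3) and mitochondrial import 6 to 10 lower, and the other counts here moved by at most 2 genes.

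Mitochondrially encoded and predicted genes were left out of the rankings that follow. By difference in level rather than fold, the other genes with the largest falls were of contraction, ATP synthesis and fat uptake. Myh6, the adult alpha myosin heavy chain, was at 24271, 23397 and 20106 CPM in the Sham libraries and 10412, 8183 and 6666 in the MI libraries (log2 fold change -1.42, SE 0.21, adjusted p = 8.63e-04), and Atp2a2, which pumps calcium into the sarcoplasmic reticulum, was at 12065, 13642 and 11538 CPM in the Sham libraries and 4731, 3207 and 1354 in the MI libraries (log2 fold change -2.00, SE 0.37, adjusted p = 0.00291). Mb, the oxygen store myoglobin, was at 8409.7, 8598 and 10851 CPM in the Sham libraries and 3068, 2344 and 1017 in the MI libraries (log2 fold change -2.12, SE 0.35, adjusted p = 0.00153). None of these 3 overlapped between the groups. The next largest falls, of Tpm1, Atp5b, Lpl, Tnnt2, Myl3, Slc25a4 and Atp5a1, had log2 fold changes of -1.78 to -0.77, with Tpm1 (-0.77) at 0.09 with total counts. The largest rises were of matrix, lysosome and translation genes. Clu, the secreted chaperone clusterin, was at 1107, 642 and 925 CPM in the Sham libraries and 2522, 2929 and 4957 in the MI libraries (log2 fold change 1.96, SE 0.32, adjusted p = 0.00144), Lyz2, the lysozyme of macrophages and neutrophils, was at 241, 173 and 305 CPM in the Sham libraries and 1825, 1663 and 1651 in the MI libraries (log2 fold change 2.84, SE 0.30, adjusted p = 1.67e-04), and Sparc, a matrix glycoprotein, was at 395, 324 and 324 CPM in the Sham libraries and 1506, 1944 and 2384 in the MI libraries (log2 fold change 2.48, SE 0.20, adjusted p = 7.44e-05). Col3a1, Col1a2, Ctsd, Ctsb, Ftl1 and Eef1a1 rose by 1.07 to 3.71 on the log2 scale.

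With the same genes left out, the calls with the smallest p-values on the higher side were mostly of matrix, monocyte and cell division genes. On the lower side they were mostly of metabolic enzymes. Higher in MI were Lox, which crosslinks collagen (log2 fold change 5.03, SE 0.24, adjusted p = 2.56e-05), the fibroblast genes Cthrc1, Col12a1, Col5a2 and Col3a1, Ccr2 and Hmox1 of monocytes and macrophages, Ccnb1 and Pclaf of dividing cells, and the protease inhibitor Serpinb1a (all 10 at 3.30 to 7.59). Lower in MI were Cmss1 (log2 fold change -2.01, SE 0.16, adjusted p = 7.44e-05), the retinol saturase Retsat, the peroxisomal glutathione transferase Gstk1, the histone deacetylase Hdac11, the hormone-like C1qtnf9, Cyp4b1, Ces1d and Cox7a1 (all 8 at -3.79 to -1.82). For all 18 genes the MI libraries did not overlap the Sham libraries, which genes picked by the smallest p nearly always meet. Of all tested genes 48.9% did not overlap.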

How the data were processed

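RNA was extracted from mouse heart tissue labelled as atria, and libraries were made with a SMARTer kit from 1.3 µg of RNA, per the labels' protocols. The authors deposited read counts per gene, whole numbers and not normalized, in 1 table of 9 libraries. The submitters' processing notes name the GRCm38 assembly, HISAT, featureCounts 1.5.0-p3 and DESeq 1.8.3. For the strand setting and for reads that map to several places, the choice is not given in the sources used here.

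Counts were tested as deposited in R 4.3.3 with edgeR 4.0.16 (limma 3.58.1). Genes were kept by filterByExpr over the 3 groups, libraries were scaled by TMM, and a quasi-likelihood F test compared MI with Sham in a fit with 1 mean per group over all 9 libraries and no covariate. The Benjamini-Hochberg adjustment ran over all 19326 tested genes. The common dispersion was 0.150, a biological coefficient of variation of 0.388. Count ratios of gene pairs used an offset of 0.5, plotted log2 levels of lists a prior count of 2, and ratios and shares a two-sided exact permutation test. The edgeR fit alone was tested on simulated counts, in which the size of each change was known. As many genes were raised as lowered there, and the groups did not differ in composition as they do here. Ratios, shares and lists were not simulated. Total counts of 68046341 to 83685313 per library put the floor of 3 counts at 0.0322 to 0.0592 CPM, which covers counting error only. Pairs of libraries of the same group differed by a chi-square of 63.6 to 538 per gene, so all 9 were counted as separate samples. Coordinates and biotypes come from a RefSeq table of GRCm38.p6, which holds 17846 of the tested genes. Of symbols in the table, 119 occur more than once, and the entry with the highest level was used.

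The gene lists hold 65 groups with 1243 distinct genes, of which 1209 were tested, 34 fell under the filter and 1 was not found in the table. Lists and pairs were chosen with earlier results of these data known. For 51 lists the text names the first 3 members as written, the 4 called members with the smallest p and the member with the highest mean CPM. All genes of the pairs are named, and over all genes the 10 called with the largest difference in mean CPM and the 10 with the smallest p in each direction, leaving out mitochondrially encoded and predicted genes. The other 14 lists are given by counts. Some genes that this rule names are not reported here.

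Alternatives were other scalings, other filters, DESeq2 1.42.0, the 6 libraries alone, the replicate number as a block, and leaving out each library. Leaving out MI 4 and MI_ART 3 together was added after seeing the data. The infarcted group given artesunate was not compared.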

Additional observations from a re-analysis of the deposited data

How the results depend on the processing

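Counts of genes higher and lower in MI (3631 and 2768) depended most on scaling. Total counts gave 9527 and 644 (10171 in all), and total counts without mitochondrially encoded genes 5918 and 1388. The other scalings, the filters, DESeq2 and the 6-library fit gave 3134 to 4263 higher and 2002 to 3297 lower, and leaving out 1 library gave 2854 to 3620 and 1952 to 3081. With the replicate number as a block, 3398 were higher and 2868 lower. Pairing by that number was looked at through deviations from the group means. Their correlations were -0.0153 to 0.152 between same-numbered libraries and -0.215 to 0.15 between other libraries of different groups. With 3 libraries per group such correlations cannot tell whether same-numbered libraries belong together. For sarcomere and Z-disc genes the difference in share, MI minus Sham, was -2.67 percentage points without mitochondrially encoded counts, and -0.187 to 0.253 with 1 library left out. For the 100 most abundant genes it was -12.6 points without mitochondrially encoded counts.

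Of the 378 named genes, 228 were called under every alternative that tested them, 69 lost their call in at least 1, 46 gained one in at least 1, and 18 turned, meaning that the sign changed and the gene was called in the full fit or under the alternative. With total counts 39 changed sign, of which 17 were so called, with the log2 fold change given: Cox7a2 0.14, Csrp3 0.12, Egln3 0.63, Gata4 0.76, Gclc 0.73, Il6st 0.63, Kdr 0.0075, Lyve1 0.14, Malat1 0.092, Mrpl10 0.58, Ncl 0.74, Pgam2 0.13, Psma1 0.47, Psma2 0.68, Psma3 0.77, Psmd12 0.42 and Tpm1 0.091. Plin1 was at -4.94 without MI 4 and also without MI 4 and MI_ART 3, and ranged up to 0.75 with other single libraries left out.

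List medians are said to turn where the sign changed by more than the SD of the 3 MI libraries' medians. They turned with total counts for adrenergic signalling (0.29), angiotensin and endothelin (0.59), cardiac transcription factors (0.53), the creatine shuttle (0.61), giant proteins (0.017), lymphatic endothelium (0.035), mitochondrial dynamics (0.11), the mitochondrial ribosome (0.37), NAD (0.67), the natriuretic system (0.58), smooth muscle (0.40) and the Z-disc (0.73). Without mitochondrially encoded counts in the total, the turned medians were cardiac transcription factors 0.083, creatine 0.14, NAD 0.20, natriuretic 0.12 and Z-disc 0.28. With the block, the turned medians were adipocytes -3.26, glycolysis -0.071 and T and NK cells -0.26. Without MI 4, and without MI 4 and MI_ART 3, they were adipocytes -3.06, glycolysis -0.085 and T and NK cells -0.39, while the highest values with another library left out were 0.84, 0.23 and 0.54. T and NK cells were also at -0.58 with the filter of at least 1 CPM in 3 libraries and at -0.22 in the 6-library fit. With single libraries left out, the medians ranged from -0.24 to 0.71 for angiotensin and endothelin (turned without Sham 2 or MI 3, and 0.18 without MI 2), from -0.63 to 0.39 for smooth muscle (turned without Sham 2) and from -0.25 to 0.017 for the Z-disc (turned without Sham 1 or MI 3). Sign changes within that SD were, for angiotensin and endothelin, 0.12 without mitochondrially encoded counts, 0.22 with the 1 CPM filter and 0.27 in the 6-library fit. For the proteasome they were -0.14 with the block, -0.13 without MI 4 or without MI 4 and MI_ART 3, -0.011 without Sham 1 and -0.043 without Sham 2, for adipocytes -0.0076 without Sham 3 and for FGF signalling -0.020 without MI 3. The cause of these differences between settings was not tested. Of the 4832 genes with the lowest mean level, up to 0.913 CPM, 12.7% were called, against 45.6% of the 4832 with the highest, and depth itself was not varied.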

Other observations

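Some transcripts were counted in 1 library of the Sham and MI groups and in none of the other 5. With a minimum of 20 counts in that library, Sham 1 held 36 such genes with 26169 counts in all. Sham 2 and Sham 3 held 4 each (160 and 150 counts), MI 2 and MI 3 held 11 each (1766 and 3283 counts), and MI 4 held 62 (2281 counts).

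The genes of Sham 1 with the most counts belong to airway epithelium. Bpifa1, a secreted airway defence protein, had 13270 counts, Scgb1a1 had 6664, Cyp2a5 1988, the secretoglobin Scgb3a2 1014, Sec14l3 637 and Bpifb1 554. The surfactant gene Sftpd had 96 counts in Sham 1 alone, while Sftpc was at 0 in all 6 libraries. Sftpa1 had 20 counts in Sham 1 and 15 in MI 4.

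Outside Sham 1 the largest single-library counts were of Qser1 (2586 in MI 3), Eif3j2 (849 in MI 2) and Gjb6, a gap junction gene (171 in MI 4). In MI 4, immunoglobulin segments were also among them, with 110 counts of Iglv2 and 80 of Ighv11-2. These genes were picked after their values were seen and enter no comparison.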
